A study of Mus musculus with 6 samples.

Results

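MHC class I presentation is the route by which nearly every cell displays fragments of its own proteins at its surface, and its transcripts were followed here in mouse retina after light damage with or without minocycline. The set held 10 genes, found by symbol among the 23420 genes of the deposited count table: the class I heavy chains H2-D1, H2-K1, H2-Q4 and H2-T23, their light chain B2m, the peptide transport and loading genes Tap1 and Tapbp, the immunoproteasome subunits Psmb8 and Psmb9, and Nlrc5, the transactivator of class I genes. Light exposure raised 8 of the 10 transcripts past the test, by 3.56-fold for H2-K1 to 9.74-fold for Psmb8, where 7.52% of all tested genes were called higher. The median log2 fold change over the 10 was 2.76. It was 2.59 without control 1, 2.82 without control 2, 2.05 without light 2 and 3.25 without light 1. How many of the 10 passed also moved with the library left out. B2m stood 10.7-fold higher without passing, and Tapbp stood 1.22-fold higher without passing. In light-exposed retinas that received minocycline, 9 of the 10 transcripts, all but Tapbp, had mean levels at 8.0% to 33.7% of those in untreated light-exposed retinas. None passed the test across all genes. The median log2 fold change of the 10 was -2.13, or -1.45 without light 2 and -2.55 without light 1.

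In the class I pathway, the proteasome cuts cytosolic proteins into peptides, and the TAP transporter, built from Tap1 and Tap2, moves the peptides into the endoplasmic reticulum. There tapasin, the product of Tapbp, holds an empty heavy chain and its light chain B2m at the transporter until a peptide binds, and the loaded complex then travels to the surface, where CD8 T cells and natural killer cells read it. Interferons raise most of these genes together, swap the constitutive catalytic subunits of the proteasome for the inducible ones, and raise Nlrc5, which acts at the heavy chain and B2m promoters. In the central nervous system, including the retina, neurons carry little class I at rest, and microglia and endothelial cells are known sources of it.

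The 6 libraries came from retinas of CD1 mice, an albino outbred stock, with 2 libraries in each of 3 groups. Control retinas had no treatment, light-exposed retinas were taken 4 days after 1 h of light at 10000 lux, and the third group had the same light plus intraperitoneal minocycline at 45 mg/kg daily for 4 days. Minocycline is a tetracycline derivative that dampens microglial activation. No group with minocycline but without light was analysed here, so each minocycline comparison is made within light-exposed mice or against untreated ones. The study's methods instead name BALB/cJ mice, a brighter light, and injections that began before the light, and neither source says how many animals went into a library. The table heads both minocycline columns alike, which leaves these libraries unnumbered; they are named minocycline A and B here.

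Libraries held 15205930 to 22856922 counts, and 3 counts corresponded to 0.131 to 0.213 CPM. CPM are counts scaled to a library of 1000000 counts, with library sizes adjusted by TMM. Control 1 differed from the other 5 libraries in sex-linked transcripts, with 77778 counts of Xist against 25 to 188, and 11 counts of Y-linked genes against 6532 to 12858. Rod markers, defining for retina, summed to 40578 to 96899 CPM. Both minocycline libraries also held transcripts of corneal epithelium, with 198 and 287 CPM over 8 marker genes against 2.32 to 15.7 CPM in the other 4 libraries. Pigment cell markers summed to 322 and 1411 CPM in the minocycline libraries against 35.3 to 140 CPM elsewhere, and markers of smooth muscle and stroma to 84.8 and 426 CPM against 8.46 to 24.1 CPM. The part of these other tissues in the minocycline values of the class I genes was not tested.

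Of the 10 genes, 8 lie in the MHC region of chromosome 17, B2m lies at chr2:122147686-122153083 and Nlrc5 at chr8:94434356-94527272 (GRCm38, GENCODE M21). H2-K1 was annotated at chr17:33996017-34000347, Tapbp at chr17:33915899-33929292, H2-D1 at chr17:35262730-35267499, H2-Q4 at chr17:35379617-35385290 and H2-T23 at chr17:36029773-36032855. Between them, Psmb9 (chr17:34181987-34187764), Tap1 (chr17:34187553-34197225) and Psmb8 (chr17:34197721-34201454) lie next to each other. Psmb9 and Tap1 run in opposite directions from start sites that RefSeq places 225 bases apart, and their annotated spans overlap.

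The promoters of 9 of the 10 genes were read from RefSeq (GRCm38.p6), and the 250 bases before each start were searched on both strands for 5 short motifs of class I regulation. Windows are shown for H2-K1, H2-Q4 and B2m, since these carry the motifs that the class I heavy chain and light chain promoters are known for. Letters run 5′ to 3′ along the gene, and capitals mark GGGATTCCC (the core of the kappa B site of the class I enhancer), GAAANNGAA (the core of the interferon-stimulated response element), TGACG (the core of the X2 box) and ATTGG (the inverted CCAAT of the Y box) on either strand. The window of H2-K1 is chr17:34000348-34000527 on the minus strand, that of H2-Q4 is chr17:35379437-35379616 on the plus strand and that of B2m is chr2:122147507-122147685 on the plus strand.
H2-K1: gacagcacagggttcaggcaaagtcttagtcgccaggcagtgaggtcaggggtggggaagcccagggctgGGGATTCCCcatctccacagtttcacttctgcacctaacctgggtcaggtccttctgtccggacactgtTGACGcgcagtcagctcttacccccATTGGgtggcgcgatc
H2-Q4: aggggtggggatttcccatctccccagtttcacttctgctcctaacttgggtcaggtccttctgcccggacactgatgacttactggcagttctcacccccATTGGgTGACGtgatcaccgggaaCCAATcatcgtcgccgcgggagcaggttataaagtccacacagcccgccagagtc
B2m: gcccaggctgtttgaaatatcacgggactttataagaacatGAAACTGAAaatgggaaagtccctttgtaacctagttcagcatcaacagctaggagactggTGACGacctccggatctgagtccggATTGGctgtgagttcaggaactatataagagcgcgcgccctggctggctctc

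TGACG was present in 6 of the 9 promoters (H2-D1, H2-K1, H2-Q4, B2m, Tap1 and Psmb9), against 17.8% of all 32851 RefSeq windows. ATTGG was present in 8 of 9, all but Psmb8, against 33.8% of all windows. GGGATTCCC was found in H2-K1 and H2-D1, against 0.301% of all windows, GAAANNGAA in B2m and H2-T23, against 7.13%, and the STAT motif TTCNNNGAA in Psmb8, against 7.02%. The TGACG of Tap1 and that of Psmb9 are the same bases, read on opposite strands between the pair of start sites, and so is their ATTGG. In H2-K1, H2-D1 and B2m the starts of TGACG and ATTGG lay exactly 25 bases apart, a spacing looked at only after the matches were seen. The stretches from the first motif to the end of the second, at chr17:34000359-34000388 (minus strand), chr17:35262993-35263022 and chr2:122147609-122147638, are shown for comparison.
H2-K1: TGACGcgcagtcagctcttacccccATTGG
H2-D1: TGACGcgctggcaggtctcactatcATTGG
B2m: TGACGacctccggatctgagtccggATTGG

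The same pair of motifs at the same spacing occurred in 30 of all 32851 windows, or 0.0913%, belonging to 26 genes. Those 26 included the 3 members and a further class I heavy chain, H2-M3. In H2-Q4 the exact TGACG lay after ATTGG, with 1 base between them. Its window also holds tgact, which differs from TGACG in 1 letter, at the same spacing before that ATTGG. Which of these serves as an X2 box was not tested. A match of letters is a description of the reference sequence, and no binding was measured.

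The first comparison asked which class I transcripts differed between light-exposed and control retinas. Among the heavy chains, the classical genes H2-K1 and H2-D1, which present peptides to CD8 T cells, were the most abundant per kb and had the closest pair of light-exposed libraries. H2-K1 measured 32.1 and 27.9 CPM in controls, 84.0 and 129 CPM in light-exposed retinas, and 39.2 and 32.5 CPM with minocycline. H2-D1 measured 14.0 and 11.98 CPM in controls, 42.6 and 64.6 CPM after light, and 19.1 and 14.8 CPM with minocycline. In both genes light-exposed libraries were above every other library, and the minocycline libraries lay just above the controls without overlap. By the edgeR quasi-likelihood test, H2-K1 rose by a log2 fold change of 1.83 ± 0.21 (SE, adjusted p = 0.0056) and H2-D1 by 2.05 ± 0.22 (adjusted p = 0.00346).

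The nonclassical heavy chains H2-Q4 and H2-T23 were lower in level, and whether their rise differed in size from that of the classical genes was not tested. H2-Q4, a gene of the Q region, measured 2.99 and 3.59 CPM in controls, 14.2 and 27.5 CPM after light, and 5.57 and 4.4 CPM with minocycline. H2-T23 encodes Qa-1, the ligand of CD94/NKG2 receptors on natural killer cells, and measured 2.35 and 2.47 CPM in controls, 8.65 and 25.9 CPM after light, and 2.96 and 3.60 CPM with minocycline. The pair of light-exposed libraries was far apart for H2-T23, at 3.0 times the CPM in light 2 compared with light 1. H2-Q4 rose by a log2 fold change of 2.67 ± 0.34 (edgeR quasi-likelihood test, adjusted p = 0.00806) and H2-T23 by 2.85 ± 0.56 (adjusted p = 0.0312). For H2-T23 the log2 fold change was 1.85 without light 2 and 3.43 without light 1.

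B2m, the light chain of every class I molecule, showed the largest difference of the 10 in the edgeR fit with all control and light-exposed libraries, and a wide spread. Its counts were 250 and 183 in controls, 1597 and 4925 after light, and 756 and 779 with minocycline. These counts corresponded to 17.8 and 12.9 CPM in controls, 93.3 and 234 CPM after light, and 32.9 and 41.3 CPM with minocycline, so the 3 groups did not overlap. The log2 fold change for light against control was 3.42 ± 0.62 (edgeR quasi-likelihood test, adjusted p = 0.0647), which did not pass. It was 2.61 without light 2 and 3.93 without light 1. Without control 2, Nlrc5 at 3.88 and Psmb8 at 3.53 stood above B2m at 3.20. With all 6 libraries in 1 fit, or with DESeq2, B2m passed for this comparison.

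Of the peptide loading genes, Tap1 rose and Tapbp did not pass. Tap1, a subunit of the peptide transporter, measured 3.20 and 3.66 CPM in controls, 13.6 and 16.0 CPM after light, and 3.88 and 2.70 CPM with minocycline. Its light-exposed libraries were close together, and its minocycline values overlapped the controls. The rise was a log2 fold change of 2.11 ± 0.27 (edgeR quasi-likelihood test, adjusted p = 0.0062). Tapbp, which encodes tapasin, measured 72.5 and 66.6 CPM in controls, 86.2 and 83.3 CPM after light, and 76.1 and 81.6 CPM with minocycline. Its light-exposed libraries stood above the others by a small margin, with a log2 fold change of 0.29 ± 0.14 against control (adjusted p = 0.204).

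Both immunoproteasome subunits rose from very low control levels. Psmb8, the inducible partner of Psmb5, had 15 and 21 counts in controls, 135 and 356 after light, and 42 and 44 with minocycline. Psmb9, the inducible partner of Psmb6, had 18 and 12 counts in controls, 94 and 272 after light, and 52 and 29 with minocycline. In CPM the control libraries lay at 0.845 to 1.48 for these genes and the light-exposed libraries at 5.49 to 16.9. Psmb8 rose by a log2 fold change of 3.28 ± 0.44 (edgeR quasi-likelihood test, adjusted p = 0.00806) and Psmb9 by 3.12 ± 0.49 (adjusted p = 0.0111).

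Nlrc5, which drives transcription of heavy chains and B2m, was the lowest of the 10 in controls. Nlrc5 had 8 and 19 counts in controls, 89 and 247 after light, and 14 and 14 with minocycline. In CPM these were 0.569 and 1.34 in controls, 5.20 and 11.7 after light, and 0.610 and 0.742 with minocycline, so the minocycline libraries lay inside the range of the controls. After light, the log2 fold change of Nlrc5 was 3.15 ± 0.53 (edgeR quasi-likelihood test, adjusted p = 0.0132).

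**Figure D1:**
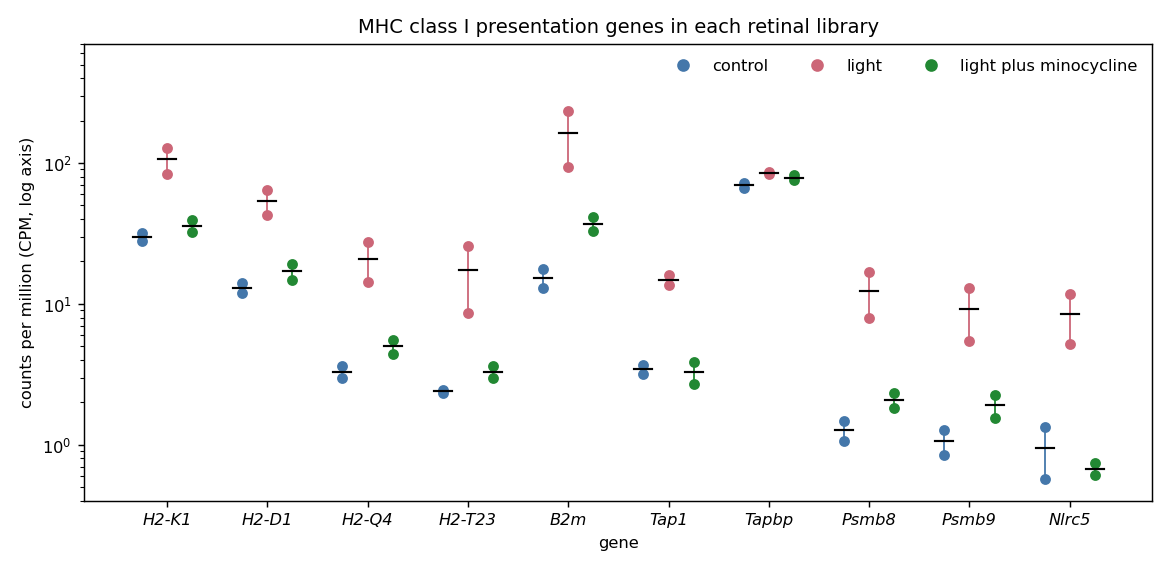
Level of each of the 10 genes in each library as CPM on a log axis; points are libraries, lines join the 2 libraries of a group and black bars are group means. Both light-exposed points lie above both control points for all 10 genes, narrowly for Tapbp at 86.2 and 83.3 against 72.5 and 66.6 CPM.

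Counted over the set, 8 of 10 members rose, 0 fell, and 7 of the 8 also reached a log2 fold change of 2, H2-K1 being the exception. Across all 14349 tested genes 7.52% were called higher, 3.80% were called lower, and 2.89% were higher with a log2 fold change of at least 2. Light-exposed and control libraries did not overlap in the higher direction for 10 of 10 members, against 30.6% of all tested genes. The median log2 fold change was 2.76 over the members and 0.00 over all tested genes. These sizes and calls moved with single libraries. With 1 library left out, the spread in the fit came from the full pair of the other group alone, and the lone library was assumed to vary like that pair, so the number passing such a fit says nothing of stability. Without light 2 the median over the members was 2.05 with 9 of 10 passing (443 of all 14528 genes were called higher), and without light 1 it was 3.25 with 9 of 10 passing (1683 of 14753). Without control 1 none of 10 passed (4 of 14862 genes were called higher) and without control 2 only Tap1 passed (20 of 14853), while the medians were 2.59 and 2.82.

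In a whole retina, fewer cells of a type and less RNA per cell cannot be told apart, so microglial markers are given beside the members. The summed CPM of 12 microglia and macrophage markers was 60.0 and 69.1 in controls, 416 and 1316 after light, and 114 and 58.3 with minocycline. All 12 were detected in every group, 5 of the 12 passed the test for light against control, and light 2 held 3.17 times the sum of light 1. Members ranged from a ratio of light 2 to light 1 of 3.0 for H2-T23, 2.51 for B2m and 2.35 for Psmb9 down to 1.52 for H2-D1, 1.18 for Tap1 and 0.967 for Tapbp. Set against the same microglial sum, B2m amounted to 29.6% and 18.7% of it in controls, 22.5% and 17.8% after light, and 28.9% and 70.8% with minocycline. H2-K1 amounted to 53.4% and 40.4% in controls, 20.2% and 9.77% after light, and 34.5% and 55.7% with minocycline. Thus H2-K1 per unit of microglial transcript was lower in light-exposed libraries than in all others, while B2m in light-exposed libraries overlapped the controls. The part of microglial abundance in the class I values was not tested.

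Markers of other retinal cells are given for the same libraries. The sum of 8 endothelial markers was 206 and 177 CPM in controls, 270 and 347 CPM after light, and 274 and 202 CPM with minocycline, which left the light-exposed libraries above the controls. The sum of 7 Müller cell markers was 2731 and 1802 CPM in controls, 3017 and 3394 CPM after light, and 3414 and 2568 CPM with minocycline. Of these 7 markers 2 passed as higher for light against control, and the median log2 fold change of the 7 was 0.72. The part of these cells in the class I values was not tested. The 8 rod markers summed to 96899 and 76412 CPM in controls, 57194 and 40578 CPM after light, and 82424 and 89714 CPM with minocycline. T cell markers were at or near 0, with 6 of 9 present in the table, 1 to 12 counts in all per library and Cd3e at 0 in every library. Of 7 markers of natural killer and B cells, Ncr1, Klre1 and Ms4a1 were at 0 in every library, and the sum was 0.479 to 1.57 CPM.

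**Figure D2:**
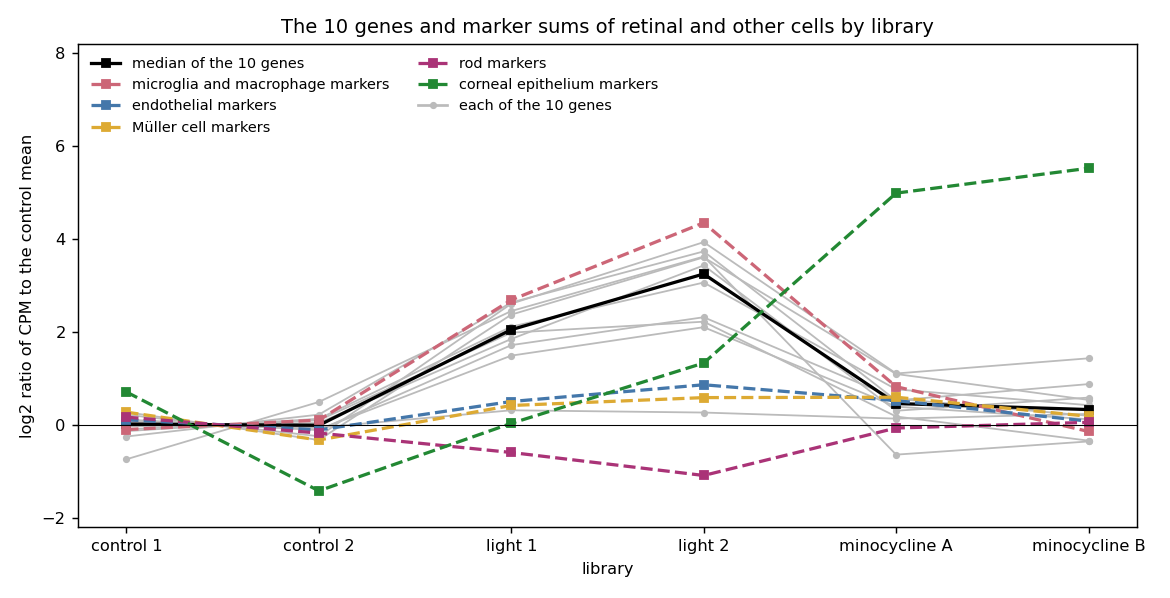
Log2 ratio of CPM in each library to the mean of the 2 controls for each of the 10 genes (grey), their median (black) and the summed markers of 5 cell types (dashed). The median of the 10 genes stands at 2.05 in light 1 and 3.25 in light 2, and the microglial sum at 2.69 and 4.35, while corneal epithelium markers stand at 4.99 and 5.52 in the minocycline libraries.

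The second comparison asked how the class I transcripts of light-exposed retinas differed with minocycline. It shares the light-exposed libraries with the first, so low values here and high values there are not independent. All 10 members were below both light-exposed libraries in both minocycline libraries, against 28.8% of all 14750 tested genes that did not overlap in the lower direction. The median log2 fold change was -2.13 over the members and 0.01 over all genes. None of the 10 passed the edgeR quasi-likelihood test, and 9 had an unadjusted p under 0.05, as did 21.1% of all tested genes in either direction. Of all tested genes, 0.0407% were called lower (6 genes) and 0.0136% higher (2 genes).

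By role, the heavy chains had log2 fold changes for minocycline against light from -1.55 ± 0.22 for H2-K1 to -2.38 ± 0.55 for H2-T23, with adjusted p = 0.0691 and 0.0946 (edgeR quasi-likelihood test). The log2 fold change of B2m was -2.12 ± 0.46 (adjusted p = 0.0949) and that of Tap1 was -2.14 ± 0.28 (adjusted p = 0.0691). The immunoproteasome subunits had values of -2.56 ± 0.43 for Psmb8 (adjusted p = 0.0698) and -2.26 ± 0.48 for Psmb9 (adjusted p = 0.0775). Nlrc5 had the largest difference, at -3.63 ± 0.51 (adjusted p = 0.0691), and its mean CPM with minocycline was 8.0% of that after light alone. Tapbp was nearly level, at -0.09 ± 0.13 (adjusted p = 0.751).

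The number of members past the threshold in this comparison differed between fits, and the cause was not tested. With all 6 libraries in 1 edgeR fit, 8 of 10 members passed as lower, all but B2m and Tapbp, against 2.40% of all genes. DESeq2 without shrinkage called 9 of 10 lower, all but Tapbp, against 4.62% of the genes it gave an adjusted p. Without light 1, 9 of 10 passed with a median log2 fold change of -2.55, beside 706 of 15207 genes lower. Without light 2 none passed and the median was -1.45, beside 27 of 14983 genes. Without minocycline A only Tap1 passed, beside 47 of 15209 genes, and without minocycline B none did, beside 5 of 15141.

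The third comparison set minocycline-treated, light-exposed retinas against controls. None of the 10 members passed the edgeR quasi-likelihood test, and 0.162% of 14181 tested genes were called higher. Log2 fold changes ran from -0.46 ± 0.53 for Nlrc5 to 1.32 ± 0.21 for B2m, with a median of 0.46 against 0.02 over all genes. B2m was the nearest to the threshold, at adjusted p = 0.078, and was the only member with an unadjusted p under 0.05, against 7.01% of all genes in either direction. The groups did not overlap in the higher direction for 8 of 10 members, all but Tap1 and Nlrc5, against 15.9% of all genes. Of the difference in mean CPM between light and control, 14.7% was left with minocycline for B2m, 10.3% for Psmb9, 9.81% for H2-D1 and 5.89% for H2-T23, and the mean of Tap1 and of Nlrc5 was below that of the controls. Without light 2 these shares were 27.9% for B2m, 18.9% for Psmb9, 13.5% for H2-D1 and 14.0% for H2-T23, and without light 1 they were 9.96%, 7.07%, 7.72% and 3.72%. Tapbp, which hardly differed between groups, gives no useful share.

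**Figure D3:**
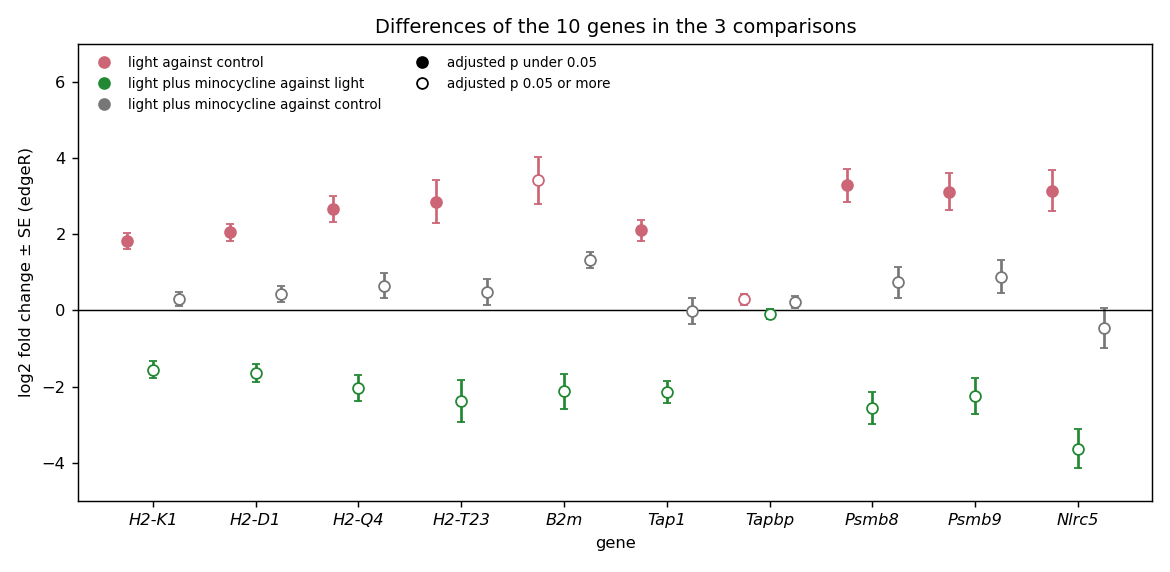
Log2 fold change with SE of each of the 10 genes in the 3 comparisons (edgeR quasi-likelihood fits); filled points have an adjusted p under 0.05. The filled points are the 8 genes that rose after light, at 1.83 to 3.28, while all points for minocycline against light are open and lie between -0.09 and -3.63.

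Levels between genes were compared as CPM per kb of annotated exon, with the exons of all annotated transcripts of a gene counted together. Such a length can exceed that of any 1 transcript, so the order between genes depends on it. In controls Tapbp at 19.2 ± 1.2 (SD, n = 2) and B2m at 17.8 ± 4.0 were at the top and did not differ beyond their spread. H2-K1 followed at 10.2 ± 1.0 and H2-D1 at 5.04 ± 0.56. H2-Q4 (1.27), H2-T23 (0.833), Tap1 (0.627), Psmb8 (0.377), Psmb9 (0.290) and Nlrc5 (0.112) were all below 1.4 CPM per kb. After light B2m was far ahead at 190 ± 116 CPM per kb, H2-K1 stood at 36.2 ± 10.7, and Tapbp and H2-D1 overlapped at 23.4 ± 0.6 and 20.8 ± 6.0. With minocycline the order at the top was B2m at 43.1 ± 6.9, Tapbp at 21.7 ± 1.1 and H2-K1 at 12.2 ± 1.6. In CPM per kb, both B2m and H2-K1 stood above Tapbp in both light-exposed libraries, while in controls H2-K1 stood below it in both and B2m in 1 of 2.

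Ratios of counts within a library do not depend on scaling between libraries. The log2 ratio of H2-K1 to B2m was 0.85 and 1.11 in controls, -0.15 and -0.86 after light, and 0.25 and -0.35 with minocycline. The same ratio for H2-D1 was -0.34 and -0.11 in controls, -1.13 and -1.86 after light, and -0.78 and -1.48 with minocycline. For all 4 heavy chains the ratio to B2m was lower in both light-exposed libraries than in both controls. By contrast H2-K1 and H2-D1 kept almost the same proportion, with a log2 ratio between 0.98 and 1.22 in all 6 libraries. Such 2 against 2 comparisons cannot reach an exact permutation p below 0.333, so they are given as descriptions.

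The inducible and constitutive proteasome subunits parted after light. Constitutive Psmb5, Psmb6 and Psmb7 had log2 fold changes of 0.20, 0.02 and 0.04 for light against control, and none of the 3 passed (adjusted p of 0.691, 0.952 and 0.885, edgeR quasi-likelihood test). Psmb8 per kb amounted to 4.34% and 6.81% of Psmb5 in controls, 33.2% and 58.1% after light, and 5.79% and 10.2% with minocycline. Psmb9 amounted to 0.628% and 0.509% of Psmb6 in controls, 3.03% and 6.74% after light, and 1.06% and 0.787% with minocycline. Psmb10, the remaining inducible catalytic subunit, rose by a log2 fold change of 1.19 ± 0.29 (adjusted p = 0.0274, edgeR quasi-likelihood test) and amounted to 16.9% and 18.1% of Psmb7 in controls, 29.7% and 48.0% after light, and 18.6% and 18.1% with minocycline. Psmb10 did not pass without light 2, control 1 or control 2 (adjusted p of 0.265, 0.0858 and 0.158). In all 3 pairs the light-exposed libraries stood above the rest. On the scale of CPM per kb each inducible subunit was below its partner in every library. For Psmb8 that order depends on the lengths, 3381 bases against 899 for Psmb5, counted over all annotated transcripts together. Without division by length, Psmb8 had more counts than Psmb5 after light, at 125% and 218% of it. The level of Psmb5 is uncertain, since 54.1% of the 50-base windows of its transcripts also occur in another annotated gene, among them its pseudogene.

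Tap1 and its partner Tap2 also parted. Tap2 had a log2 fold change of 0.54 ± 0.20 after light (edgeR quasi-likelihood test, adjusted p = 0.101), and Tap1 per kb amounted to 13.2% and 10.8% of Tap2 in controls, 33.2% and 36.4% after light, and 14.9% and 9.86% with minocycline. Tap1 and Psmb9, which share the stretch between their start sites, did not keep 1 proportion: the log2 ratio of Tap1 to Psmb9 counts was 1.32 and 2.12 in controls, 1.30 and 0.30 after light, and 0.78 and 0.81 with minocycline.

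**Figure D4:**
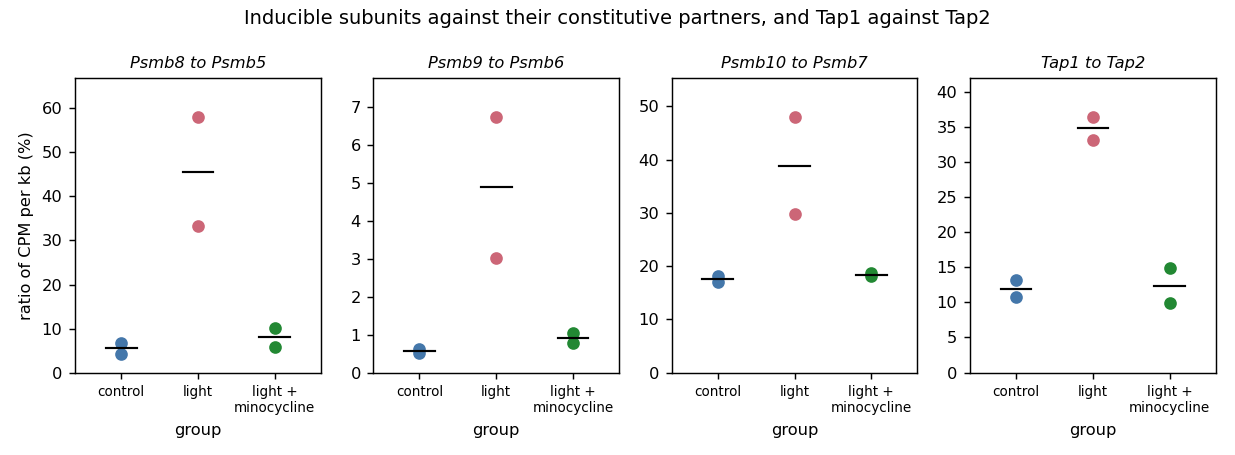
Ratio of CPM per kb, in percent, of each inducible proteasome subunit to its constitutive partner and of Tap1 to Tap2; points are libraries and bars are group means, on axes that start at 0. Both light-exposed libraries are highest in each panel, such as 33.2% and 58.1% for Psmb8 to Psmb5 against 4.34% to 10.2% in the other 4 libraries.

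Among other genes of the pathway, 28 further class I and class I-like heavy chains were in the table and 13 had enough counts for the test. After light 9 of 13 rose and 0 fell, against 7.52% and 3.80% of all genes, with a median log2 fold change of 1.56. With all 6 libraries in 1 fit 7 of 13 rose. Cd1d1, H2-M5, H2-T10 and Hfe did not pass, and the log2 fold change of Hfe was -0.40 (adjusted p = 0.173, edgeR quasi-likelihood test). H2-Q10 rose by 1.84 ± 0.31 (adjusted p = 0.0113, edgeR quasi-likelihood test), H2-M3, which presents formylated peptides, by 2.74 ± 0.50 (adjusted p = 0.0132) and H2-Q1 by 2.65 ± 0.51 (adjusted p = 0.0147). Procr, the endothelial protein C receptor with a class I-like fold, had 0 counts in both controls and 11 and 27 after light, at least 4.53-fold higher against a floor of 3 counts per library (at least 3.03-fold without light 2). With Procr set at that bound, a log2 of 2.18, the median of the list was the same. Without light 2, 4 of 12 rose, and without control 1 or control 2 none of 14 did.

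Peptide trimming and loading beyond the members changed little. Of 15 tested genes 2 rose after light and 0 fell, against 7.52% and 3.80% of all tested genes. Erap1, the endoplasmic reticulum aminopeptidase that trims peptides, rose by 1.00 ± 0.21 (adjusted p = 0.018, edgeR quasi-likelihood test). Tapbpl, the tapasin-related editor, rose by 1.23 ± 0.35 (adjusted p = 0.0465). The median of the 15 was 0.11. Neither passed without light 2, control 1 or control 2, and with all 6 libraries in 1 fit 1 of 15 rose. Of 4 other inducible proteasome genes only Psmb10 passed, with Psme1, a subunit of the PA28 activator, at 1.29 ± 0.37 (adjusted p = 0.0722). None of 11 core subunits without an inducible partner passed, and their log2 fold changes ran from -0.19 to 0.26; those of highest CPM were Psma7, Psmb4, Psmb1 and Psma1.

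Of 25 tested genes of class I transcription and interferon signaling, 6 rose and 1 fell after light, against 7.52% and 3.80% of all tested genes. Ifnar2, a chain of the type I interferon receptor, rose by a log2 fold change of 2.20 ± 0.35 (adjusted p = 0.0101, edgeR quasi-likelihood test). The transcription factors Irf1 and Irf7 rose by 1.8 ± 0.33 (adjusted p = 0.0132) and 1.22 ± 0.23 (adjusted p = 0.0156), and Creb1, which binds the X2 box, fell by 0.72 on the log2 scale (adjusted p = 0.0163). Irf8, Nfkb1 and Ifngr2 also rose, while Rfx5, which binds the X box, had a log2 fold change of 0.49 (adjusted p = 0.119). Without light 2, 4 of 25 rose and 0 fell, without control 1 none passed, and without control 2 only 1 rose. The median of the list was 0.09.

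Transcripts of the 8 interferon genes looked at were at or near 0. Ifng and the alpha genes Ifna1, Ifna2, Ifna4 and Ifna5 had 0 counts in all 6 libraries, and Ifnb1 had 1 count in each light-exposed library. None of these 8 genes reached 3 counts in any library, which allows up to 0.131 to 0.213 CPM. Of 15 class I receptors and lymphocyte genes in the table, 3 had enough counts for the test, and all 3 rose: Lilrb4 from 2 and 3 counts in controls to 114 and 470 after light (at least 68.3-fold, adjusted p = 0.015, edgeR quasi-likelihood test), Gp49a from 0 and 1 to 38 and 264 (at least 34.8-fold, adjusted p = 0.0498) and Lilrb3 from 1 and 2 to 11 and 32 (at least 5.09-fold, adjusted p = 0.0245). These are inhibitory or related receptors of myeloid cells. Of all tested genes, 7.52% were called higher. None of the 3 passed without control 1 or without control 2, and without light 2 Lilrb4 and Gp49a passed while Lilrb3 was not tested. Against the same floor, the bounds without light 2 were 31.4-fold for Lilrb4, 10.5-fold for Gp49a and 3.03-fold for Lilrb3, and without light 1 they were 105-fold, 59.1-fold and 7.16-fold. With minocycline Lilrb4 had 7 and 4 counts, Gp49a 1 and 2, and Lilrb3 3 and 4. Prf1, Gzmb and Klrk1, used by cytotoxic lymphocytes, were at 0 in all libraries. Cd8a was not at 0. It had 2 and 1 counts in controls, 9 and 5 after light, and 7 and 0 with minocycline, and was not tested.

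In the comparisons of minocycline with light and with control, 0 genes of any of these other lists passed the edgeR quasi-likelihood test. With all 6 libraries in 1 fit, 1 of 13 other heavy chains, 2 of 25 genes of transcription and interferon signaling and 2 of 3 receptors were lower with minocycline than after light alone. In that fit 2.40% of all genes were lower. Without light 1 the median log2 fold changes of these 3 lists were -1.52, -0.40 and -6.38. Without light 2 they were -0.89, -0.17 and -3.27, the last over 4 receptors. With minocycline against light, the number with an unadjusted p under 0.05 was 8 of 13 among other heavy chains, 14 of 25 in transcription and interferon signaling, 4 of 15 in peptide loading and 0 of 3 among constitutive catalytic subunits, beside 21.1% of all genes. Against control the corresponding numbers were 1 of 11, 1 of 24, 3 of 15 and 0 of 3, beside 7.01% of all genes.

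**Figure D5:**
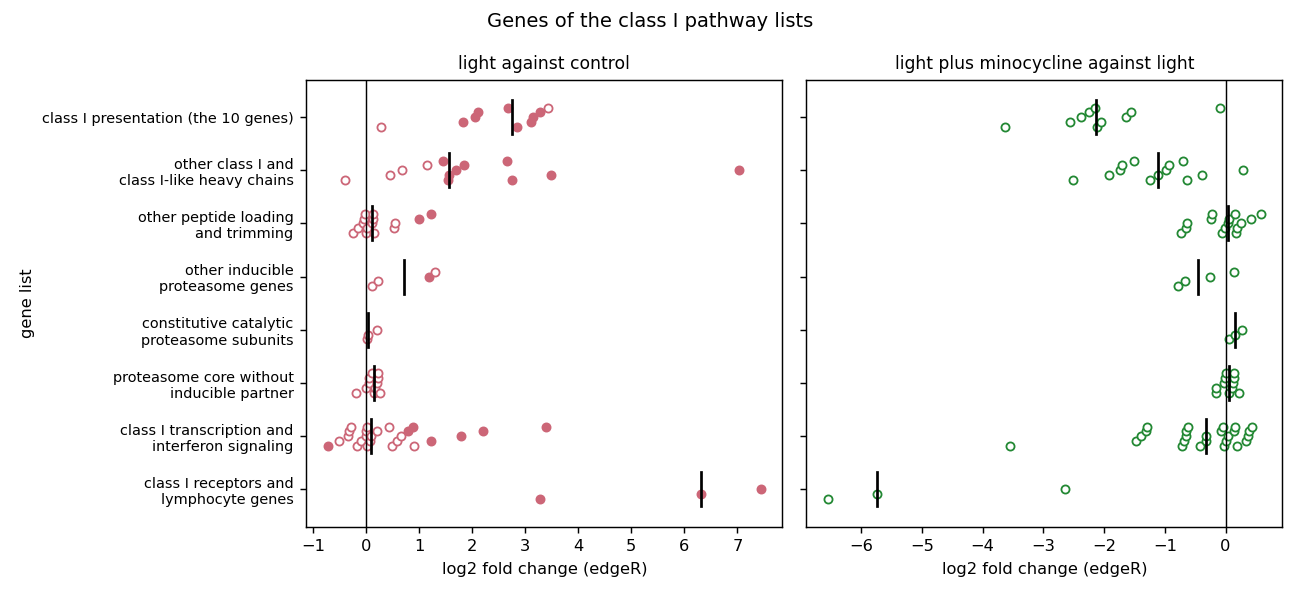
Log2 fold change of every tested gene in each class I pathway list for light against control (left) and light plus minocycline against light (right); filled points have an adjusted p under 0.05 and bars are medians. The constitutive and core proteasome lists stay within -0.19 to 0.28 in both panels, while the 10 class I presentation genes have medians of 2.76 and -2.13; values of Procr, Lilrb3, Lilrb4 and Gp49a in the left panel depend on the prior count, since their controls held 3 counts or fewer.

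The genes with the most similar profile to the members were found among 13967 tested genes as those whose centred log2 CPM lay nearest to the members' mean over the 6 libraries (root mean square difference). Parp14 was nearest at 0.11, followed by Lrrc33 at 0.13, Glipr2 at 0.14, Eif2ak2 and Rab31 at 0.16, and Slc11a1, H2-M3 and Abcb1b at 0.17. Parp14, a mono-ADP-ribosyltransferase, had a log2 fold change of 2.50 ± 0.39 after light and -1.90 ± 0.39 with minocycline against light, and Eif2ak2, the double-stranded RNA-dependent kinase PKR, 2.53 ± 0.40 and -1.99 ± 0.41. Slc11a1, a metal transporter of macrophage phagosomes, had 2.97 ± 0.50 and -2.33 ± 0.48. Of the members themselves, H2-Q4 lay nearest to the common profile at 0.13 and Tapbp farthest at 0.97, with Nlrc5 at 0.66 and B2m at 0.48. The likeness covers 6 libraries only, and these genes rose in the same libraries by construction.

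Heavy chain values carry an uncertainty of assignment, since class I genes are near copies of each other and differ between mouse strains, while alignment used the mm10 reference. Of the 50-base windows of annotated transcripts, 21.8% of those of H2-Q4, 13.6% of H2-T23, 12.8% of H2-D1 and 9.63% of H2-K1 also occur in another gene, against 0 for B2m, Psmb9 and Nlrc5. H2-L, H2-Q6, H2-Q7, H2-Q8 and H2-Q9 were at 0 in all 6 libraries. Tap1 and Psmb9 overlap on opposite strands, and whether strand was used in counting is not given in the sources used here.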

How the data were processed

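Retinal mRNA of 6 mouse libraries (2 control, 2 light, 2 light plus minocycline) was sequenced. The authors prepared stranded libraries, aligned reads to mm10 with STAR within RNA Express and deposited gene counts, which are whole numbers without scaling although the data statement calls them normalized. Versions, gene annotation and strand use in counting are not given in the sources used here. No value column was left out (0 unused).

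Each pair of groups was tested with the robust quasi-likelihood F test of edgeR 4.0.16 under R 4.3.3, after filterByExpr and TMM scaling, with Benjamini-Hochberg adjustment over all tested genes. All 10 members passed the filter in the 3 comparisons. A gene passed at an adjusted p under 0.05, and the SE was taken from the F statistic. With 2 libraries per group, p-values rest on the spread between these libraries, with each gene's spread drawn towards a trend over all genes. Profiles used log2 CPM with a prior count of 2, and 3 counts per library set the floor. On simulated counts, 200 genes were changed by a log2 of 3 among 14200, 14561 and 14060 genes. Of these 200, 96.5% (light against control), 97% (minocycline against light) and 96% (minocycline against control) were recovered, with 18, 21 and 16 false calls. These shares hold for the simulated counts only and do not give the share recovered in the real libraries. In the real fit of minocycline against light, Nlrc5 did not pass at a log2 fold change of -3.63 (edgeR quasi-likelihood test, adjusted p = 0.0691). Exon lengths came from GENCODE M21, over all annotated transcripts of a gene together, and promoters from RefSeq GRCm38.p6.

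The members and gene lists were chosen with earlier results of these data known. Named are all members, the up to 4 genes of smallest p per other list among those passing in light against control (or of highest mean CPM), the 8 nearest profiles, Psmb5, Psmb6, Psmb7, Psmb10 and Tap2. Other genes (Irf8, Nfkb1, Ifngr2, Rfx5, Psme1, Cd8a and genes at or near 0) were chosen after their values were seen. Alternatives were DESeq2 1.42.0 with and without shrinkage, other scalings and filters, all libraries in 1 fit, a fold threshold, the replicate block and leaving out each library.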

Additional observations from a re-analysis of the deposited data

How the results depend on the processing

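For light against control, 8 members passed, and 7 to 10 did under the other tools, scalings, filters and fits, beside 820 (all libraries in 1 fit) to 1930 (total library size) genes called higher in all. Leaving out 1 library gave 0 to 9: 0 without control 1, 1 (Tap1) without control 2, and 9 without light 1 or light 2. Scaling by total library size moved the median of all genes to 0.24 (log2), with all 10 members passing at a median of 3.0, or 2.77 above that shift. For minocycline against light, 0 passed, but 9 did with DESeq2 with or without shrinkage (694 and 737 genes lower in all), 7 without a filter (485) and 8 with all libraries in 1 fit (353); leaving out 1 library gave 0 to 9 (9 without light 1, 1 without minocycline A). For minocycline against control, 0 passed, 1 (B2m) did with DESeq2 with or without shrinkage (124 and 163 genes higher in all) and without a filter (183), and leaving out 1 library gave 0 to 1 (1, B2m, without minocycline A or without minocycline B, beside 407 and 438 genes higher in all, against 23 with all 4 libraries). The number of all genes called moved with the libraries too, and with 1 library left out the pair of the other group alone gave the spread. The cause of these differences was not tested.

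The sign turned for Tap1 in minocycline against control, to 0.0312 with total library size, to 0.0913 without control 2 (-0.12 without control 1) and to 0.18 without minocycline B (-0.31 without minocycline A). For Nlrc5 leaving out 1 library gave -0.95 to 0.29, with 0.29 without control 2. Neither passed in any fit of that comparison. The medians of member levels moved by less than the spread between replicates under total library size. With the replicate number as a block, 8 members passed for light against control, with 1668 genes called higher in all against 1079 without the block, and same-numbered libraries did not deviate together (r = -0.03 over 13977 genes, 2 pairs). No paired analysis was possible because, in either minocycline comparison, both minocycline columns carry the same header. Depth limits genes near 3 counts, such as the interferon genes looked at.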
